A study of Mus musculus with 4 samples.

Results

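The genes described here are 9 genes that make thyroid hormone in the follicular cells of the thyroid: Tg, Duox1, Duox2, Duoxa1, Duoxa2, Slc5a5, Slc26a7, Iyd and Tshr. They were taken by gene symbol from a list of names, and all 9 were found among the 16218 genes of the deposited count table. The values come from RNA-seq of thyroids of NOD.H-2h4 mice, which readily develop autoimmune thyroiditis, with 2 libraries from mice given an antibody against PD-L1 and 2 from mice given an isotype control IgG. Antibody was injected 3 times a week for 2 weeks in each group, and PD-L1 is a surface protein that restrains T cells by binding PD-1. The comparison asks which genes of the thyroid change under PD-L1 blockade. No transgene or engineered allele is named for either group, and neither age nor sex is given in the sources used here. The titles number the libraries within each group, and the batch field differs in all 4, so batch and group cannot be told apart.

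Thyroid hormone is built on thyroglobulin, the large secreted protein encoded by Tg, inside the lumen of the follicle. Thyrotropin acts on its receptor (Tshr) and drives the cell through cyclic AMP. Iodide enters at the basal side through the sodium iodide symporter (Slc5a5), and it is then coupled to tyrosines of thyroglobulin with hydrogen peroxide made by the dual oxidases (Duox1 and Duox2). Each dual oxidase needs its own maturation factor (Duoxa1 or Duoxa2) to leave the endoplasmic reticulum, and Iyd, a dehalogenase, recovers iodide from iodotyrosines that were not used. Slc26a7 encodes an anion transporter, and its loss in humans causes congenital hypothyroidism with goitre.

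None of the 9 genes passed the test of the treatment, run across all genes. For 7 of them, all but Duox1 and Duoxa1, the anti-PD-L1 libraries differed more from each other than the groups did. In TMM-normalized CPM, which are counts scaled to a common library size after correction for composition, these 7 were higher in anti-PD-L1 replicate 2 than in anti-PD-L1 replicate 1. For 4 of them (Tg, Slc26a7, Iyd and Tshr) the anti-PD-L1 libraries lay on opposite sides of both IgG libraries, replicate 2 above and replicate 1 below. Over all 16217 genes tested, 16.9% showed that order. None of the 9 had the reverse one, with replicate 1 above and replicate 2 below, which 16.8% of genes showed. Duox1 and Duoxa1 went the other way, and were lower in anti-PD-L1 replicate 2 than in anti-PD-L1 replicate 1.

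The pairs of oxidase and maturation factor lie side by side on chromosome 2, each pair pointing away from a shared stretch of DNA, and their counts within a library are compared further on. The 250 bases before the start site of each are therefore shown, in RefSeq's annotation of GRCm38.p6 and in the direction of transcription of each gene. RefSeq promoter entries were matched for 6 of the 9 genes by symbol, these 4 together with Slc5a5 and Iyd. The start sites of Duox2 and Duoxa2 are 673 bases apart and those of Duox1 and Duoxa1 1942 bases apart. The Duox2 stretch is chr2:122298228-122298477 on the minus strand, and that of Duoxa2 is chr2:122298650-122298899 on the plus strand. The Duoxa1 stretch is chr2:122313731-122313980 on the minus strand, and that of Duox1 is chr2:122315422-122315671 on the plus strand. GENCODE places the start of Duox2 further out, at 122298449, inside the stretch shown. Capitals mark matches to the motifs named after the sequences.
Duox2: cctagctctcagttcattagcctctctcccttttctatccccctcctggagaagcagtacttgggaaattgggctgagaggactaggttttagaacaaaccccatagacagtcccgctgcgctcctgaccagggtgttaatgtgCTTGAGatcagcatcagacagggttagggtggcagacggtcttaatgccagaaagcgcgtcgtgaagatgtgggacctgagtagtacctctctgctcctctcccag
Duoxa2: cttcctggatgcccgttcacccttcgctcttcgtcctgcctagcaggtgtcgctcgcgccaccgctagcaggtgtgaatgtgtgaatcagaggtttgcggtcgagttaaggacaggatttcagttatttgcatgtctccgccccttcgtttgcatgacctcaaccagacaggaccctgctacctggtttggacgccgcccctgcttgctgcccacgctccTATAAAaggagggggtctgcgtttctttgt
Duoxa1: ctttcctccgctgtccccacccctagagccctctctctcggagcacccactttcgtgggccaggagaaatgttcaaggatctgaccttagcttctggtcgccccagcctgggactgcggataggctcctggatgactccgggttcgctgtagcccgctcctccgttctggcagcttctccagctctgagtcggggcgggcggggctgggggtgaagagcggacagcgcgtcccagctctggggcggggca
Duox1: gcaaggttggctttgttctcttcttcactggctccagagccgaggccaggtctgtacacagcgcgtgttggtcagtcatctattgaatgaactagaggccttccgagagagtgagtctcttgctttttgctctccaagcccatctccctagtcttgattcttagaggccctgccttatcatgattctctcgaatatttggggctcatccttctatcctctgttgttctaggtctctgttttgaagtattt

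Motifs were searched on both strands, and none overlapped another in these stretches. The letters CTCAAG, a core bound by the thyroid factor NKX2-1, matched once, on the opposite strand of Duox2, and are present in 13.3% of all 32851 promoters of this length. The TATA box letters TATAAA matched once, in Duoxa2, 30 bases before its start site, and are present in 12.4%. The letters TTCNNNGAA (gamma-activated site, in 7.02% of promoters) and TGACGTCA (cyclic AMP response element, in 1.55%) were not in these stretches. A match is only a match of letters.

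Total counts were 75591923 and 77685257 in anti-PD-L1 libraries and 79663374.5 and 77492328 in IgG libraries. The lowest count of any of the 9 genes was 519 (Duoxa1 in anti-PD-L1 replicate 2, with an exact 95% Poisson interval of 475 to 566, which covers counting error only). Counting error is therefore small beside the wide differences between libraries, but not beside the gap between near-equal values. Anti-PD-L1 replicate 1 stood apart in having 1.40 CPM of Xist, an RNA of the inactive X chromosome, and 62.6 CPM of Ddx3y, a gene of the Y chromosome. Anti-PD-L1 replicate 2 had 67.7 CPM of Xist and 0.790 CPM of Ddx3y. The IgG libraries had 72.3 to 72.7 CPM of Xist and 0.350 to 0.486 CPM of Ddx3y. By these genes anti-PD-L1 replicate 1 came from a male and the other libraries from females, though no sex is given. The spread between the anti-PD-L1 libraries, which enters the errors and p-values, cannot be told apart from that difference. Each fold change of the 9 genes is therefore also given without anti-PD-L1 replicate 1. Follicular identity was present in all 4 libraries: Pax8, a transcription factor of follicular cells, had 107.1 and 249.7 CPM in anti-PD-L1 libraries and 174.7 and 173.8 CPM in IgG libraries.

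**Figure D1:**
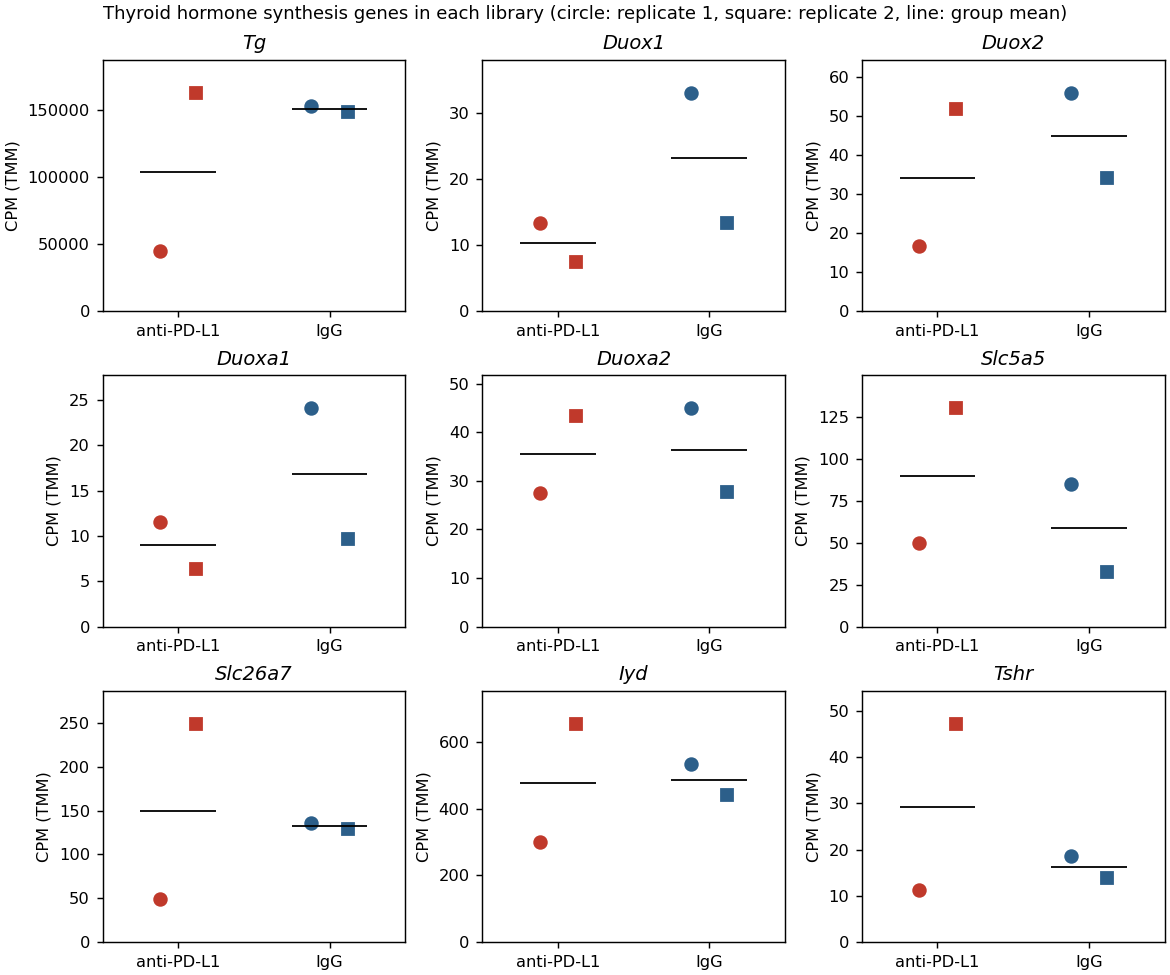
TMM-normalized CPM of the 9 genes in each library, on linear axes that start at 0, with anti-PD-L1 in red and IgG in blue. Circles are replicate 1, squares are replicate 2 and lines are group means. For Tg, Slc26a7, Iyd and Tshr the anti-PD-L1 libraries lie on opposite sides of both IgG libraries.

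The receptor of the pathway, Tshr, lies on chromosome 12 from 91384563 to 91549808 of GRCm38 on the plus strand, with 15 exon blocks. It had 11.2 and 47.3 CPM in anti-PD-L1 libraries, against 18.7 and 13.9 CPM in IgG libraries. Anti-PD-L1 replicate 2 was the highest of the 4 libraries and anti-PD-L1 replicate 1 the lowest. The log2 fold change, anti-PD-L1 minus IgG, was 0.85 ± 0.71 (SE, n = 2 per group; edgeR quasi-likelihood adjusted p = 0.9997, unadjusted p = 0.295). It was 1.54 without anti-PD-L1 replicate 1 and −0.55 without anti-PD-L1 replicate 2.

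The iodide symporter gene Slc5a5 lies on chromosome 8 from 70882889 to 70892757 on the minus strand, with 15 exon blocks. It had 49.9 and 130.1 CPM in anti-PD-L1 libraries, against 85.1 and 32.8 CPM in IgG libraries. The groups overlapped, and the replicates of each group differed by a similar factor, 2.61-fold in anti-PD-L1 and 2.60-fold in IgG. Its log2 fold change was 0.61 ± 0.67 (edgeR adjusted p = 0.9997), 1.14 without anti-PD-L1 replicate 1 and −0.25 without anti-PD-L1 replicate 2. It was 1.44 without IgG replicate 1 and 0.081 without IgG replicate 2.

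Slc26a7, the anion transporter gene, lies on chromosome 4 from 14502430 to 14621805 on the minus strand, with 20 exon blocks. It had 48.8 and 249.3 CPM in anti-PD-L1 libraries, against 135.7 and 129.5 CPM in IgG libraries. It had the widest spread between the anti-PD-L1 libraries of the 9 genes, 5.11-fold, while the IgG libraries differed by 1.05-fold. The log2 fold change of 0.17 ± 0.78 (edgeR adjusted p = 0.9997) lay between the values with each anti-PD-L1 library alone. It was 0.91 without anti-PD-L1 replicate 1 and −1.45 without anti-PD-L1 replicate 2. Leaving out a library leaves 1 in its group, so the other group alone gives the spread, and such values are given with no error or p.

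Tg lies on chromosome 15 from 66670753 to 66850721 on the plus strand, with 52 exon blocks. The gene Sla lies within it on the opposite strand and shares 0 exon bases with it. Tg took 4.34% of all counts in anti-PD-L1 replicate 1 (95% Wilson interval 4.337 to 4.346) and 16.9% in anti-PD-L1 replicate 2 (16.94 to 16.96). In IgG libraries it took 15.3% (15.33 to 15.34) and 14.6% (14.59 to 14.60). These intervals cover counting error only.

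After TMM normalization Tg had 44667 and 162488 CPM in anti-PD-L1 libraries, against 152770 and 148532 CPM in IgG libraries. Anti-PD-L1 replicate 1 was low, and the other 3 libraries lay within a narrow range. Between the groups the log2 fold change was −0.54 ± 1.06 (edgeR adjusted p = 0.9997). It was 0.11 without anti-PD-L1 replicate 1 and −1.77 without anti-PD-L1 replicate 2.

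A gene that takes so large a share of a library changes the CPM of every other gene. Leaving Tg out of the library totals raised the others by 0.064 and 0.27 on the log2 scale in anti-PD-L1 libraries, and by 0.24 and 0.23 in IgG libraries. Iyd, for example, had 303.5 and 822 CPM of the total without Tg in anti-PD-L1 libraries, against 631 and 507 CPM in IgG libraries. With Tg in the total it had 290.3 and 683 CPM in anti-PD-L1 libraries, against 535 and 433 CPM in IgG libraries. The edgeR log2 fold changes with totals that left out Tg were −1.25 for Duox1, −1.0 for Duoxa1, −0.37 for Duox2 and −0.047 for Duoxa2. They were 0.63 for Slc5a5, 0.23 for Slc26a7, 0.89 for Tshr, −0.016 for Iyd and −0.50 for Tg itself. With Tg in the plain totals they were −1.16 for Duox1, −0.91 for Duoxa1, −0.35 for Duox2 and −0.0069 for Duoxa2, and 0.65 for Slc5a5, 0.22 for Slc26a7, 0.90 for Tshr, 0.0090 for Iyd and −0.49 for Tg. The sign differed between these totals for Iyd alone among the 9.

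Duox1, one of the oxidase genes, lies on chromosome 2 from 122315672 to 122347972 on the plus strand, with 33 exon blocks. It had 13.4 and 7.44 CPM in anti-PD-L1 libraries, against 33.1 and 13.4 CPM in IgG libraries. It was the 1 gene of the 9 whose anti-PD-L1 libraries were each below each IgG library, an order that 13.1% of all genes showed, while 0 of the 9 had the opposite order, shown by 16.5%. The gap between the groups was that between 13.364 and 13.394 CPM, from 982 and 1020 counts, which is within counting error. The order was the same with RLE factors, plain totals and totals without Tg, but not relative to the follicular transcription factors. On the log2 scale the groups differed by −1.16 ± 0.55 (edgeR adjusted p = 0.9997, unadjusted p = 0.0953), the smallest p among the 9. It was −1.64 without anti-PD-L1 replicate 1 and −0.39 without IgG replicate 1.

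Duoxa1, the maturation factor of Duox1, lies from 122302191 to 122313730 on the minus strand, with 8 exon blocks. It had 11.6 and 6.41 CPM in anti-PD-L1 libraries, against 24.1 and 9.65 CPM in IgG libraries, and the groups overlapped. Its log2 fold change was −0.91 ± 0.55 (edgeR adjusted p = 0.9997), −1.40 without anti-PD-L1 replicate 1 and −0.13 without IgG replicate 1. The high value of IgG replicate 1 was common to Duox1 and Duoxa1.

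Duox2, the other oxidase gene, lies on chromosome 2 from 122279247 to 122298449 on the minus strand, with 33 exon blocks. It had 16.7 and 51.8 CPM in anti-PD-L1 libraries, against 56.0 and 34.1 CPM in IgG libraries. Anti-PD-L1 replicate 1 was the lowest of the 4 libraries. Its log2 fold change was −0.40 ± 0.61 (edgeR adjusted p = 0.9997), 0.20 without anti-PD-L1 replicate 1 and −1.44 without anti-PD-L1 replicate 2.

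Duoxa2, the maturation factor of Duox2, lies from 122298900 to 122302885 on the plus strand, with 6 exon blocks. It had 27.6 and 43.3 CPM in anti-PD-L1 libraries, against 44.9 and 27.7 CPM in IgG libraries. The lowest anti-PD-L1 and lowest IgG values were nearly equal, and so were the highest ones. The groups differed by −0.035 ± 0.35 on the log2 scale (edgeR adjusted p = 0.9997), less than the spread between replicates. The value was 0.25 without anti-PD-L1 replicate 1 and −0.41 without anti-PD-L1 replicate 2.

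Ratios within a library do not depend on how libraries are scaled. Duox2 had 0.604 counts per Duoxa2 count in anti-PD-L1 replicate 1 (exact 95% binomial interval 0.562 to 0.649) and 1.20 in anti-PD-L1 replicate 2 (1.14 to 1.25). In IgG libraries the ratio was 1.25 (1.19 to 1.30) and 1.23 (1.16 to 1.30). The interval of anti-PD-L1 replicate 1 lay below those of the other 3 libraries, which overlapped one another. These intervals cover counting error only, and say nothing of the spread between animals or library preparations.

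Duox1 had 1.16 counts per Duoxa1 count in anti-PD-L1 replicate 1 (1.05 to 1.27) and 1.16 in anti-PD-L1 replicate 2 (1.03 to 1.31). The IgG libraries had 1.37 (1.29 to 1.46) and 1.39 (1.26 to 1.53). The log2 difference between the groups was −0.25 for this pair and −0.54 for the Duox2 pair, each with an exact two-sided permutation p = 0.333 (2 against 2 libraries), the smallest that 2 against 2 allows. In the adjustment over the 14 ratios tested, p = 0.849 for both (exact permutation test). The far ends of Duoxa1 and Duoxa2 share 682 exon bases on opposite strands, and the strand setting of the counting is not given, so the split of reads between these 2 genes is uncertain. Duox1 and Duox2 are close paralogs, which adds the same doubt to them.

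**Figure D2:**
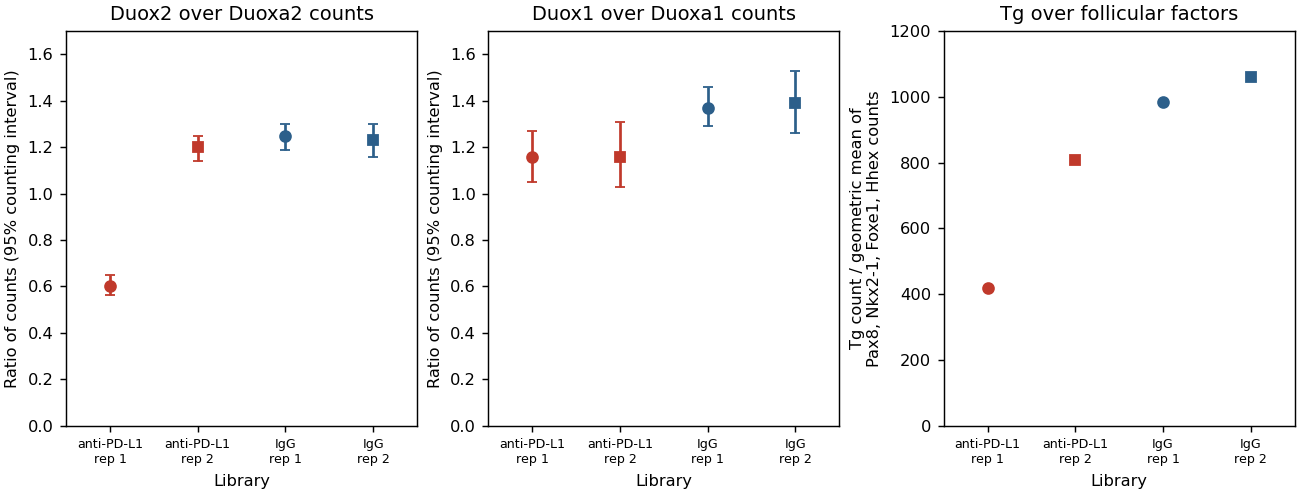
Ratios of counts within each library: Duox2 over Duoxa2 and Duox1 over Duoxa1 with 95% counting intervals, and Tg over the geometric mean of 4 follicular factor genes. Axes are linear and start at 0. Duox2 over Duoxa2 is 0.604 in anti-PD-L1 replicate 1 and 1.20 to 1.25 elsewhere, and Tg over the factors is lower in both anti-PD-L1 libraries (418 and 808) than in IgG libraries (986 and 1060).

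Iyd, the iodotyrosine dehalogenase gene, lies on chromosome 10 from 3540240 to 3554877 on the plus strand, with 5 exon blocks. It had 298.7 and 655 CPM in anti-PD-L1 libraries, against 533 and 440.2 CPM in IgG libraries. The order of the libraries was that of Slc26a7 and Tg, with a narrower spread of 2.19-fold between the anti-PD-L1 libraries. The log2 fold change was −0.029 ± 0.45 (edgeR adjusted p = 0.9997), 0.43 without anti-PD-L1 replicate 1 and −0.71 without anti-PD-L1 replicate 2.

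Over the 9 genes, edgeR called 0, at an adjusted p under 0.05, where 0% of all genes were called in either direction, and 0 of the 9 had an unadjusted p under 0.05. Over all genes, 4.96% were higher and 1.10% lower at that unadjusted p. DESeq2 also called 0 of the 9, where it called 2.93% of all genes higher and 0.327% lower. The median log2 fold change of the 9 was −0.035, against 0.00021 over all genes, with 3 above 0 and 6 below. It was 0.25 without anti-PD-L1 replicate 1 and −0.71 without anti-PD-L1 replicate 2. These are bulk samples, so fewer follicular cells and less RNA per cell cannot be told apart.

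**Figure D3:**
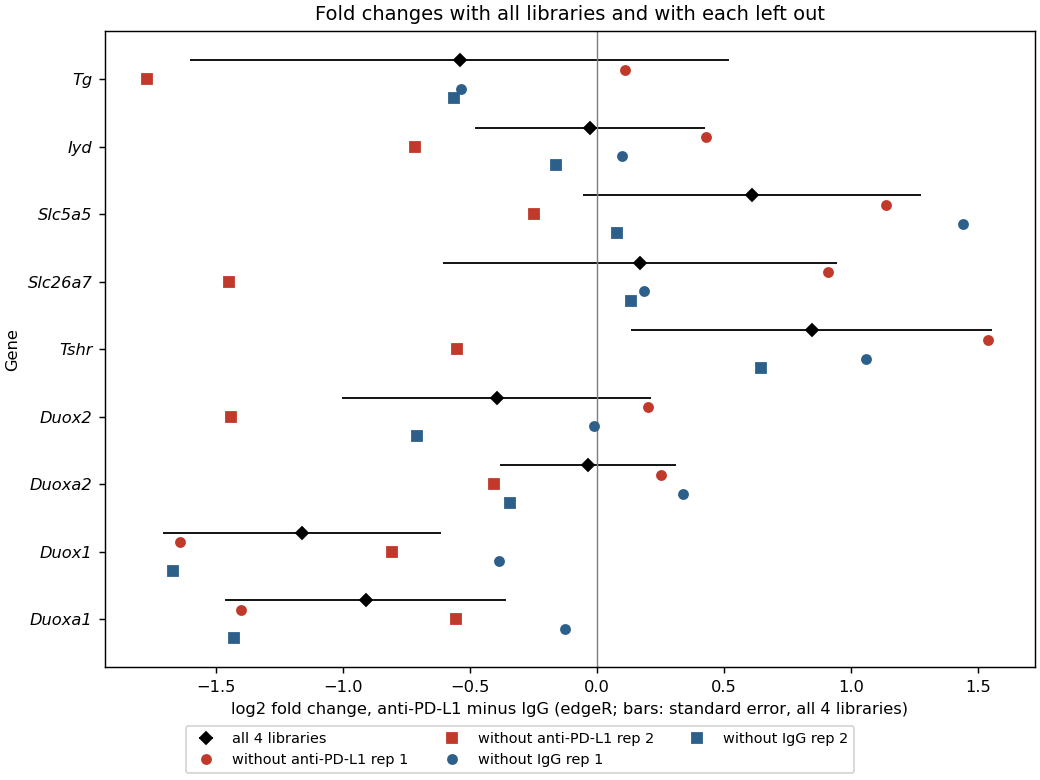
Log2 fold changes of the 9 genes, anti-PD-L1 minus IgG, from edgeR with all 4 libraries (black) and with each library left out in turn. Bars are standard errors, drawn for the fit with all 4 libraries. All but Duox1 and Duoxa1, 7 of the 9 genes, are above 0 without anti-PD-L1 replicate 1 and below 0 without anti-PD-L1 replicate 2, and Duox1 and Duoxa1 are below 0 throughout.

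Per kilobase of exon, in TMM-normalized CPM, the genes spanned a wide range of levels. Tg had 5030 and 18300 CPM per kb in anti-PD-L1 libraries, against 17200 and 16700 in IgG libraries. Iyd came next, with 184 and 403 CPM per kb in anti-PD-L1 libraries and 328 and 271 in IgG libraries. The ranges over the 4 libraries did not overlap between Tg and Iyd or between Iyd and the next gene, Slc26a7.

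Slc26a7, Slc5a5 and Duoxa2 followed with means over the 4 libraries of 25.9, 25.4 and 22.5 CPM per kb, in ranges that overlapped. Duox2, Tshr, Duoxa1 and Duox1 were lower still, with means of 5.86, 3.78, 3.25 and 3.19 CPM per kb and overlapping ranges. Duox2 exceeded Duox1 per kb by 5.42-fold in anti-PD-L1 replicate 2, while the ratio was 0.97 in anti-PD-L1 replicate 1. It was 1.32 and 1.98 in IgG libraries.

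The genes that set follicular identity also had the anti-PD-L1 libraries on either side of the IgG libraries. All 5 follicular transcription factor genes listed (Pax8, Nkx2-1, Foxe1, Hhex and Glis3) had anti-PD-L1 replicate 2 above and anti-PD-L1 replicate 1 below both IgG libraries. Over all genes tested 16.9% showed that order, and so did 6 of the 8 adipocyte markers. Nkx2-1 had 167.7 and 274.5 CPM in anti-PD-L1 libraries, against 236 and 228 CPM in IgG libraries (log2 fold change −0.07 ± 0.30, edgeR adjusted p = 1). Glis3 had 18.8 and 56.9 CPM in anti-PD-L1 libraries, against 23.2 and 25.7 CPM in IgG libraries (0.63 ± 0.55, edgeR adjusted p = 1). None of the 5 passed, and the median log2 fold change was 0.093, with 0.52 without anti-PD-L1 replicate 1, −0.48 without anti-PD-L1 replicate 2 and −0.00062 with limma voom.

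Tg was lower relative to these factors in both anti-PD-L1 libraries. Its count was 418 and 808 times the geometric mean of Pax8, Nkx2-1, Foxe1 and Hhex in anti-PD-L1 libraries, against 986 and 1060 times in IgG libraries. The groups did not overlap, as for 5.69% of all genes in that direction on this scale. The other direction held for 7.32% of all genes and for none of the 9. Tg was also lower in both anti-PD-L1 libraries against each of the 5 factors taken singly. These ratios all share the Tg count, and 4 of the 5 factors make up the mean, so they are not separate evidence. The log2 difference was −0.82 (exact two-sided permutation p = 0.333 with 2 against 2 libraries, the smallest possible; p = 0.849 adjusted over the 14 ratios).

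The other 8 genes overlapped between the groups on that scale. Iyd had 2.80 and 3.25 counts per count of the factors in anti-PD-L1 libraries, against 3.44 and 3.15 in IgG libraries, the narrowest range of the 9. Slc26a7 had 0.456 and 1.24 in anti-PD-L1 libraries, against 0.875 and 0.926 in IgG libraries. Duox1 had 0.125 and 0.037 in anti-PD-L1 libraries, against 0.213 and 0.0958 in IgG libraries, so its groups overlapped here.

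**Figure D4:**
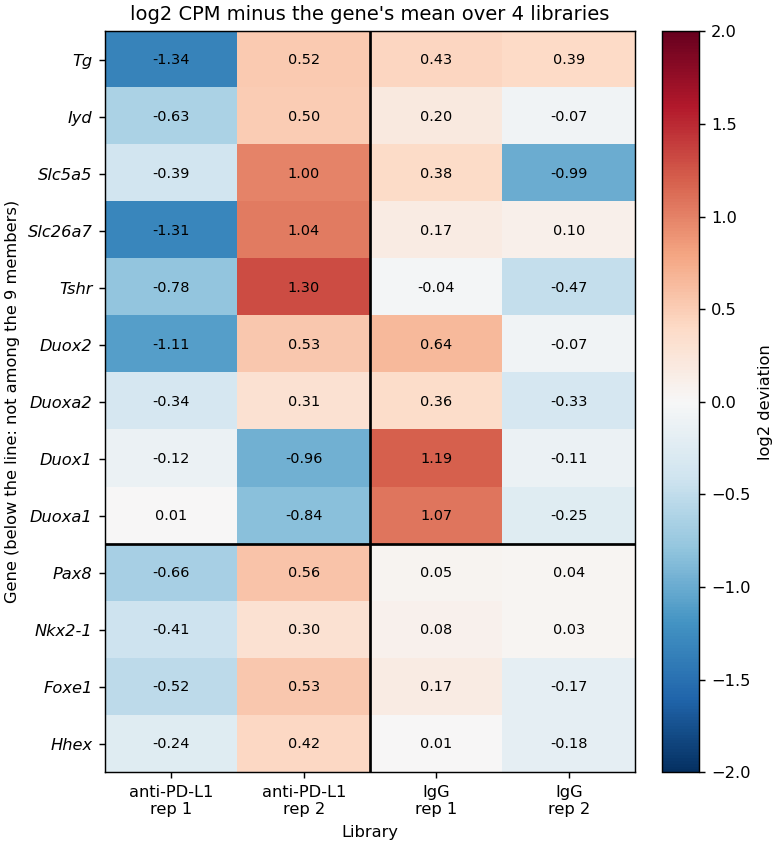
Log2 CPM of the 9 genes, and below the line of 4 follicular factors, as the deviation from each gene's mean over the 4 libraries. Red is above and blue below that mean, and each cell gives its value. Anti-PD-L1 replicate 1 is lowest for 6 of the 9 genes, and Duox1 and Duoxa1 are lowest in anti-PD-L1 replicate 2.

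Other genes of the pathway, in lists chosen with earlier results of these data known, held no call by edgeR in either direction. In the list of iodide and anion handling, 6 of 7 genes were listed, 0 passed, and the median log2 fold change was −0.074, or 0.060 when scaled to the follicular factors. It was 0.0028 without anti-PD-L1 replicate 1, 0.042 without IgG replicate 1 and 0.060 without IgG replicate 2. Slc5a8, a monocarboxylate transporter gene, had the smallest, −0.18 ± 0.29 (edgeR adjusted p = 1), with 29.9 and 46.8 CPM in anti-PD-L1 libraries, against 49.2 and 37.5 CPM in IgG libraries, and the groups overlapped.

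In the TSH signalling list 0 of 10 genes passed and the median log2 fold change was −0.056, or 0.075 without anti-PD-L1 replicate 1, with 7 of 10 above 0 in place of 3. Gnas, the gene of the stimulatory G protein subunit that couples the receptor to cyclic AMP, had the largest log2 fold change, 0.12 ± 0.30, and Pde8b, a phosphodiesterase gene, the smallest, −0.17 ± 0.28.

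The list of thyroglobulin folding, uptake and proteolysis had 15 genes, 0 of which passed by edgeR, with all 15 log2 fold changes above 0, against 50.0% of all genes, and a median of 0.27. Without anti-PD-L1 replicate 2 it was 5 of 15, with a median of −0.175, and without IgG replicate 2 it was 9 of 15, with a median of 0.024. Legumain (Lgmn), a lysosomal protease that is also abundant in macrophages, had the largest, 0.77 ± 0.17 (edgeR adjusted p = 0.341). It had 116 and 114 CPM in anti-PD-L1 libraries, against 71.9 and 62.7 CPM in IgG libraries. DESeq2 called it higher (adjusted p = 0.00701), the 1 gene of the 15 so called, where DESeq2 called 2.93% of all genes higher, and it called 0 of the 15 lower, against 0.327% of all genes. The macrophage markers summed to 824 and 763 CPM in anti-PD-L1 libraries, against 173 and 229 CPM in IgG libraries, and their part in the Lgmn values was not tested. Lrp2, the gene of the uptake receptor megalin, had the smallest, 0.067 ± 0.40.

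In the list of hormone release and deiodination 0 of 7 genes passed and the median log2 fold change was 0.12. Its direction turned without anti-PD-L1 replicate 1 (−0.098) and without IgG replicate 1 (−0.0068), and it was 0.25 without anti-PD-L1 replicate 2. Slc7a8, an amino acid transporter gene that also carries iodothyronines, had 11.5 and 15.6 CPM in anti-PD-L1 libraries, against 10.0 and 9.21 CPM in IgG libraries (0.50 ± 0.22, edgeR adjusted p = 0.976). Dio2, a deiodinase gene, had 8.47 and 13.6 CPM in anti-PD-L1 libraries, against 15.1 and 16.1 CPM in IgG libraries (−0.50 ± 0.28, edgeR adjusted p = 1). Of the 12 peroxide-handling genes 0 passed, with a median of 0.020 that turned to −0.093 without IgG replicate 2 and to −0.022 with library totals without Tg. Their log2 fold changes lay between −0.20 for Prdx6, a peroxiredoxin gene, and 0.48 for Gpx1, a glutathione peroxidase gene.

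The dissected thyroids held other tissues in unequal amounts, as shown by the plot of marker sums. Squamous epithelial markers, all 9 listed, summed to 4550 and 61.1 CPM in anti-PD-L1 libraries, against 11190 and 3033 CPM in IgG libraries. The order of the libraries was that of Duoxa1, and IgG replicate 1 was highest for both Duox1 and Duoxa1. Dual oxidases are also known from airway and other epithelia. The part of squamous epithelium in the Duox1 and Duoxa1 values was not tested. Markers of airway and mucosal glands, all 12 listed, summed to 30930 and 9218 CPM in anti-PD-L1 libraries, against 3953 and 17650 CPM in IgG libraries. The part of these glands in the values of the oxidase and maturation factor genes was not tested. The 7 ciliated cell markers summed to 243 and 162 CPM in anti-PD-L1 libraries, against 246 and 302 CPM in IgG libraries.

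Skeletal muscle markers, all 9 listed, summed to 54600 and 19740 CPM in anti-PD-L1 libraries, against 32770 and 43960 CPM in IgG libraries. Anti-PD-L1 replicate 1, the lowest library for Tg, was the highest for muscle. Adipocyte markers, all 8 listed, summed to 380 and 708 CPM in anti-PD-L1 libraries, against 593 and 526 CPM in IgG libraries. This is the order seen for Tg, Slc26a7, Iyd and Tshr. Tshr is also known from adipocytes. The part of either tissue in these values was not tested.

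T cell markers, all 9 listed, summed to 148 and 149 CPM in anti-PD-L1 libraries, against 23.8 and 48.9 CPM in IgG libraries. The 14 interferon gamma response genes summed to 1912 and 1870 CPM in anti-PD-L1 libraries, against 308 and 328 CPM in IgG libraries. Both sums were nearly equal between the anti-PD-L1 libraries. Tg differed 3.64-fold between these libraries, and any link of Tg to the immune genes was not tested. B cell markers, all 6 listed, summed to 124 and 64.2 CPM in anti-PD-L1 libraries, against 30.1 and 101 CPM in IgG libraries.

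Among endocrine neighbours, parafollicular C cell markers summed to 1803 and 1397 CPM in anti-PD-L1 libraries, against 1995 and 1379 CPM in IgG libraries. Parathyroid markers summed to 4565 and 3238 CPM in anti-PD-L1 libraries, against 4515 and 1591 CPM in IgG libraries. Simple epithelial markers summed to 1722 and 1691 CPM in anti-PD-L1 libraries, against 2096 and 1482 CPM in IgG libraries. Cartilage markers summed to 93.8 and 147 CPM in anti-PD-L1 libraries, against 178 and 201 CPM in IgG libraries. The cartilage sum was mostly Cnmd in anti-PD-L1 libraries, with 60.9 and 115 CPM, against 56.8 and 43.9 CPM in IgG libraries. For the other 7 of the 8 cartilage markers every anti-PD-L1 value was below every IgG value, as for 13.1% of all genes, and the median log2 fold change of the 8 was −2.04. DESeq2 called 6 of the 8 lower, against 0.327% of all genes. edgeR called 0 of the 8, as it did over all genes. None of these 4 sums had the order of libraries seen for Tg, but Cdh16 of the simple epithelial list and Ret of the C cell list did. The part of these tissues in the Tg values was not tested. No marker of any list was at 0 in a library.

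**Figure D5:**
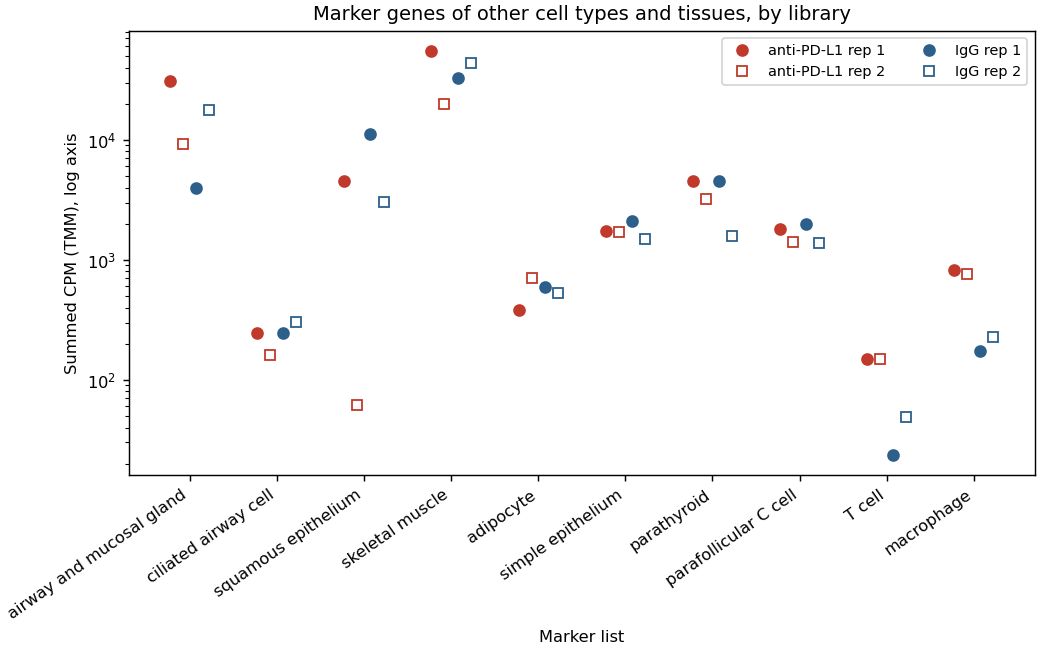
Summed TMM-normalized CPM of marker genes of other cell types and tissues in each library, on a log axis, with anti-PD-L1 in red and IgG in blue. Squamous markers range from 61.1 CPM in anti-PD-L1 replicate 2 to 11190 CPM in IgG replicate 1, while T cell and macrophage markers are higher in both anti-PD-L1 libraries.

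Genes with the most similar profile were sought for Tg, Slc5a5 and Duox2 among 10400 genes with a mean of at least 10 CPM, by the root mean square difference of log2 deviations over the 4 libraries. With only 4 libraries many genes fit any profile closely, so this is a description. Closest to Tg were Rec8 (difference 0.045), C230004F18Rik (0.052) and Wdr36 (0.054). Rec8, a meiotic cohesin gene, had 142 and 488 CPM in anti-PD-L1 libraries, against 461 and 432 CPM in IgG libraries. Closest to Slc5a5 were Cyp2e1 (0.145), Slc14a2 (0.218) and Spink8 (0.229), and among the closest to Duox2 were Kcnj16 (0.137) and Cfd (0.143). Cfd encodes adipsin, a product of adipocytes.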

How the data were processed

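Poly(A)-selected thyroid RNA was sequenced as paired-end reads of 150 bp, per the labels' protocols. The authors deposited raw expected counts for each gene symbol, per the file headers. BWA and mm10 are named in the submitters' processing notes with no role. How reads were counted, on which annotation and with which strand setting, is not given in the sources used here. Of 16218 genes, 12 had a blank cell, read as 0.

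Expected counts were rounded to whole numbers. edgeR 4.0.16 in R 4.3.3 was run with filterByExpr (16217 genes kept), TMM factors, robust dispersions and the two-sided quasi-likelihood F test on group, with Benjamini-Hochberg adjustment over all genes and a threshold of 0.05. Standard errors are the absolute log2 fold change over the square root of F. The residual degrees of freedom were 2 and the median biological coefficient of variation 24.4%. The labels number the samples but do not say how animals were housed or paired, so p-values measure the spread between these samples. Replicates of a group differed by far more than sampling noise (chi-square of 1056 for anti-PD-L1 and 321 for IgG, each divided by its degrees of freedom). At these depths 3 counts are 0.0377 to 0.0397 CPM.

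Exon lengths and coordinates came from GENCODE M21 (GRCm38, also called mm10), in which 15871 symbols were found once. The edgeR fit was run on simulated counts with known fold changes in 200 genes. Simulated replicates differed only by the fitted dispersion, and the other steps were not simulated. The 9 genes and all lists were chosen with earlier results of these data known. The named genes were the 9, the largest and smallest log2 fold change of each pathway list, the summed CPM of each marker list, and the 3 nearest profiles of Tg, Slc5a5 and Duox2; some genes that this rule selects are not reported here. Alternatives were other scalings (RLE, plain totals, totals or TMM without Tg, scaling to 4 follicular factor genes), no filter, a stricter filter (mean count of 20 or more, and 1 CPM or more in 2 libraries), DESeq2 1.42.0, limma 3.58.1 voom, the replicate number as a block, neighbouring-tissue genes left out, and each library left out in turn.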

Additional observations from a re-analysis of the deposited data

How the results depend on the processing

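No gene of the 9 passed an adjusted p of 0.05 under any alternative run. The number of genes called over the whole table was 0 with all 4 libraries and under each alternative except 2: DESeq2 called 528 and scaling to the follicular factors called 192, and the cause was not tested. The median log2 fold change of the 9 genes ranged from −0.71 (without anti-PD-L1 replicate 2) to 0.25 (without anti-PD-L1 replicate 1) with each library left out in turn, and 0 genes were called each time. Across those 4 fits the log2 fold changes ranged from −1.77 to 0.11 for Tg, −1.44 to 0.20 for Duox2, −0.41 to 0.34 for Duoxa2, −0.71 to 0.43 for Iyd, −0.25 to 1.44 for Slc5a5, −1.45 to 0.91 for Slc26a7 and −0.55 to 1.54 for Tshr, each changing sign. Duox1 (−1.67 to −0.39) and Duoxa1 (−1.43 to −0.13) kept theirs. Under other scalings and tests, Iyd changed sign with plain library totals (0.0090). Slc26a7 did so when scaled to the follicular factors (−0.087), with limma voom (−0.29) and with the replicate block (−0.26). Numbers in the titles are not stated to mark a shared cage, batch or day. The deviations of same-numbered libraries correlated with r = 0.0998 across genes, which cannot show whether such libraries shared any of these. With the replicate block 0 genes were called over the whole table and the smallest adjusted p among the 9 was 0.305 (Duox1, edgeR). The unadjusted edgeR p in that fit was 0.00756 for Duox1 and 0.0235 for Duoxa1. Of 16217 genes in that fit, 321 were lower and 739 higher at an unadjusted edgeR p under 0.05. The block also leaves fewer residual degrees of freedom than the main fit. DESeq2 gave Duox1 an unadjusted p of 0.0342 (adjusted p = 0.532). Of 16218 genes, 275 were lower and 907 higher at an unadjusted DESeq2 p under 0.05. At these depths the lowest count of any of the 9 genes in a library was 519.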
